A study of Mus musculus with 19 samples.

Results

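The 39 genes described here are the interferon response genes named by symbol in a list given for this work: every gene was found among the 24062 genes of the bulk RNA-seq count table (15 libraries), and 38 of them among the 31053 features of the single-cell matrix, where Mx2 is not analysed here. They were grouped by role into 4 transcription factors (Irf1, Irf7, Irf9, Stat2), 4 nucleic acid sensors (Ifih1, Ddx58, Dhx58, Zbp1), 5 oligoadenylate synthetase genes (Oas1a, Oas2, Oas3, Oasl1, Oasl2), 3 IFIT genes (Ifit1, Ifit2, Ifit3), 2 genes of the ISG15 system (Isg15, Usp18), 12 other effectors (Isg20, Mx1, Mx2, Rsad2, Cmpk2, Bst2, Ifi35, Ifi44, Xaf1, Trim30a, Parp9, Parp14), 6 inducible GTPases (Gbp2, Gbp3, Gbp7, Iigp1, Igtp, Irgm1) and 3 genes of antigen processing (Psmb8, Psmb9, Tap1). The rule itself uses no measured value, although the list was drawn up with earlier results of these data known.

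The study sequenced RNA of sorted mouse colon crypt cells and of embryonic hindgut epithelium. The Ascl2 knockout (KO) group (2 libraries) came from mice labelled Ascl2Fl/Fl; Lgr5EGFP-Cre+, in which tamoxifen (2 mg on days 1 and 2, and 1 mg on day 3) lets a Cre recombinase made in Lgr5-expressing stem cells delete Ascl2, a transcription factor of intestinal stem cells. The regenerating group (2 libraries) and the wild type group (3 libraries) carried the alleles Ascl2(mCh); Lgr5Dtr-Egfp+; the regenerating mice had 4 injections of diphtheria toxin (50 ug/kg, every other day), which kills the Lgr5-expressing stem cells that make its receptor. All 3 groups were on a C57BL/6 129/Sv mixed background, their ages were not given in the sources used here, and cells were sorted on mCherry or GFP. KO and wild type mice therefore differed in reporter alleles and tamoxifen as well as in Ascl2. A single 10x library (3′ v3) held mCherry-positive, GFP-negative cells, labelled as regenerating colon cells at day 8. These mice had the same alleles as the regenerating group and also had 4 injections of diphtheria toxin (50 ug/kg). The hindgut libraries came from Epcam-positive cells of wild type CD1 embryos at E11, E12, E14 and E16, with 2 libraries labelled as biological replicates at each age. For the colon libraries nothing says that replicates were separate animals, so their p-values measure the spread between these libraries only.

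Interferons are secreted proteins made by infected or immune cells. Type I and type III interferons act through JAK1 and TYK2 on factors that include STAT2 and IRF9 and bind the interferon-stimulated response element (ISRE) of their target genes; interferon gamma acts through JAK1 and JAK2 and the gamma-activated site (GAS) of its target genes, and induces IRF1. The targets sense foreign RNA and DNA, block virus replication, restrict intracellular microbes and widen antigen presentation by MHC class I. In the intestinal epithelium this programme is known for defence against enteric viruses and intracellular bacteria, and for a constant low activity kept up by the microbiota.

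Promoter sequence, defined as the 250 bases before and the 50 bases after an annotated transcript start, was present for 30 of the 39 genes in the RefSeq table used (GRCm38.p6). The ISRE letters (GAAA, any 2 bases and GAAA), searched on both strands, occurred in the promoter of 16 of these 30 genes (53.3%), and in 3.99% of the 27025 genes of the table. The GAS letters TTCNNNGAA occurred in 9 of the 30 genes (30.0%), against 9.55% of all genes, and 4 of the 30 genes had both. Such a match is a description of letters and not a measured binding site. The 6 promoters shown are those of genes with an ISRE match and the smallest p-values in the comparisons that follow, with the ISRE letters in capitals, 5′ to 3′ on the strand of the gene. Trim30a (a regulator of immune signalling) is at chr7:104446076-104446375 (minus strand), around a start that lies inside the longest annotated gene body. The match in this window begins at base 3 after that start. Another Trim30a window, chr7:104465144-104465443 at the start of the longest gene body, also holds an ISRE match and is not shown. Gbp7 (a guanylate-binding protein) is at chr3:142530086-142530385 (plus strand), Ifih1 (the RNA sensor MDA5) at chr2:62646206-62646505 (minus strand), Bst2 (tetherin) at chr8:71537423-71537722 (minus strand), Oas1a at chr5:120907476-120907775 (minus strand) and Rsad2 (viperin) at chr12:26456403-26456702 (minus strand). In Bst2 and Oas1a the capitals hold 2 matches that overlap.
Trim30a: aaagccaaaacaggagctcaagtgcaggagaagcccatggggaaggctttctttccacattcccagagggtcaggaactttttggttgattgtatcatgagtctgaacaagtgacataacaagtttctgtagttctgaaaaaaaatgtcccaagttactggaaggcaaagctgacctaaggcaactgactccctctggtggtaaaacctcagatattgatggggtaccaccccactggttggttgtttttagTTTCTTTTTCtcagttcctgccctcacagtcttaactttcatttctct
Gbp7: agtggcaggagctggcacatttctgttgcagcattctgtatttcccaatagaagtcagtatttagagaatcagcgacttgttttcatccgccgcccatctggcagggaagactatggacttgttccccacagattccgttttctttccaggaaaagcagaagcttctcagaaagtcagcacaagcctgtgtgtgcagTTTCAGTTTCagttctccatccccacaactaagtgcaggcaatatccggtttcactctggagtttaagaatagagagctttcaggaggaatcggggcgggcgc
Ifih1: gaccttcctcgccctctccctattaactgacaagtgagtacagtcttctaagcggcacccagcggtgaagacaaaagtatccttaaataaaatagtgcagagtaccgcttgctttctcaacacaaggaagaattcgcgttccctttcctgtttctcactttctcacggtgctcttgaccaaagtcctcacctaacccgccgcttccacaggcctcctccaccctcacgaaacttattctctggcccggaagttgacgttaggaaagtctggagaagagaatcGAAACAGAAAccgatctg
Bst2: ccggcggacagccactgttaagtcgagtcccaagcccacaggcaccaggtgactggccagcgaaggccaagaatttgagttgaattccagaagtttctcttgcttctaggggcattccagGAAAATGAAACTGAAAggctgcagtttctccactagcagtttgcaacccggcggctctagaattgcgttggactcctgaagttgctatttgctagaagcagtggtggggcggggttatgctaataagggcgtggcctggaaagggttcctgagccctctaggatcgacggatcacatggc
Oas1a: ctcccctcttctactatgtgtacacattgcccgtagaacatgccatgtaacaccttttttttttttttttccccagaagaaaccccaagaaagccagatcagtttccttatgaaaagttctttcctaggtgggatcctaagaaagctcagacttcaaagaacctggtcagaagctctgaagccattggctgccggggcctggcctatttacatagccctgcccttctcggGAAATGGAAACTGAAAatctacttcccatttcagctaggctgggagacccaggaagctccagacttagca
Rsad2: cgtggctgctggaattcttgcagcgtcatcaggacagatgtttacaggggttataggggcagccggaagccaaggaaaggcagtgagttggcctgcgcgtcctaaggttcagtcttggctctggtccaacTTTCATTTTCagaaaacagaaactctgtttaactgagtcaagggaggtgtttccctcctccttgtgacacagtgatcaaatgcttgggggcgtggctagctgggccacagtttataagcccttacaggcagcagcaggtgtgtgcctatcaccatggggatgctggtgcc

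Of the 16 genes with ISRE letters, 8 rose at E16 against E11 and none fell; of the 13 tested genes whose promoter lacks them, 10 rose and 1 fell, where 29.6% of all genes rose and 26.2% fell. In KO against wild type cells the corresponding counts were 1 up and 2 down of 16, and 3 up and none down of 14, where 18.8% of all genes rose and 17.4% fell. Bst2 carried the ISRE letters among the 4 genes that rose in KO cells, and Ifit1 and Gbp7, the 2 genes that fell there, both carried them.

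Each bulk library held between 13826958 and 30583908 counts in genes. Levels are given as normalized CPM, that is, counts relative to the library total after scaling by the trimmed mean of M values (TMM), computed separately for the 7 colon and the 8 hindgut libraries. CPM is not divided by gene length, so no gene is called more abundant than another from it. The KO libraries stood apart: their TMM factors were 0.616 and 0.660, against 1.11 to 1.32 in the other colon libraries, and 51.2% and 51.4% of their reads were not uniquely placed, against 36.4% to 40.2%. Genes were also split into 3 equal classes by genomic span; the median log2 fold change of KO against wild type over all genes was 0.553 in the class of shortest genes, -0.355 in the middle class and -0.146 in the longest. Ascl2 itself had 53.8 and 59.2 CPM in the KO libraries and 85.7 and 56.99 CPM in the regenerating libraries, against 109.7, 151 and 104 CPM in the wild type libraries; these counts cover the whole gene and do not resolve the deleted part. Summed immune cell markers (15 genes) reached 1119 and 596 CPM in the KO libraries and 36.8 and 14.98 CPM in the regenerating libraries, against 58.2, 4.21 and 41.2 CPM in the wild type libraries. Summed stromal markers (8 genes) reached 143 and 222 CPM in the KO libraries and 14.7 and 11.7 CPM in the regenerating libraries, against 6.898, 3.89 and 6.56 CPM in the wild type libraries. Of the 15 immune markers, 1 and 0 were at 0 in the KO libraries and 3 and 3 in the regenerating libraries, against 5, 8 and 2 in the wild type libraries. Summed epithelial markers (6 genes, Epcam and Krt8 among them) reached 19651 and 18557 CPM in the KO libraries and 12909.6 and 13196 CPM in the regenerating libraries, against 12344, 12654 and 14604 CPM in the wild type libraries, and none of the 6 was at 0 in any library.

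The wild type libraries differed widely from each other in these genes. Wild type replicate 2 had the lowest level of the 3 for 31 of the 39 genes, while it was lowest for 33.4% of all genes tested. The highest wild type library exceeded the lowest by a median of 4.87-fold over the 35 genes detected in all 3, and by more than 10-fold for 10 of them; the corresponding median was 2.02-fold between the KO libraries and 1.58-fold between the regenerating libraries. The largest wild type ratio was that of Iigp1, an immunity-related GTPase that attacks the vacuoles of intracellular parasites, with 159, 1.69 and 62.7 CPM. The sum of all 39 genes was 3094 and 1313 CPM in the KO libraries and 2747 and 1474 CPM in the regenerating libraries, against 2832, 619.5 and 2001 CPM in the wild type libraries, so the groups overlapped. Summed colonocyte markers (6 genes) were 20555 and 15367 CPM in the KO libraries and 1073 and 5281 CPM in the regenerating libraries, against 6303, 1965 and 12943 CPM in the wild type libraries: wild type replicate 2 was the lowest of its group in both sums, whereas in the regenerating group the library with more colonocyte marker RNA had the lower interferon response sum. The part of cell composition in these differences was not tested. In such bulk samples fewer cells of a type and less RNA per cell cannot be told apart. Marks of sex also differed within and between groups. Xist, a transcript of female cells, had 552 and 1 counts in KO, 1 and 1 in regenerating and 971, 10 and 581 in wild type libraries. Ddx3y, a gene of the Y chromosome, had 5 and 273, 1064 and 754, and 0, 448 and 409 counts in the same order. The part of sex in the levels of the 39 genes was not tested.

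**Figure D1:**
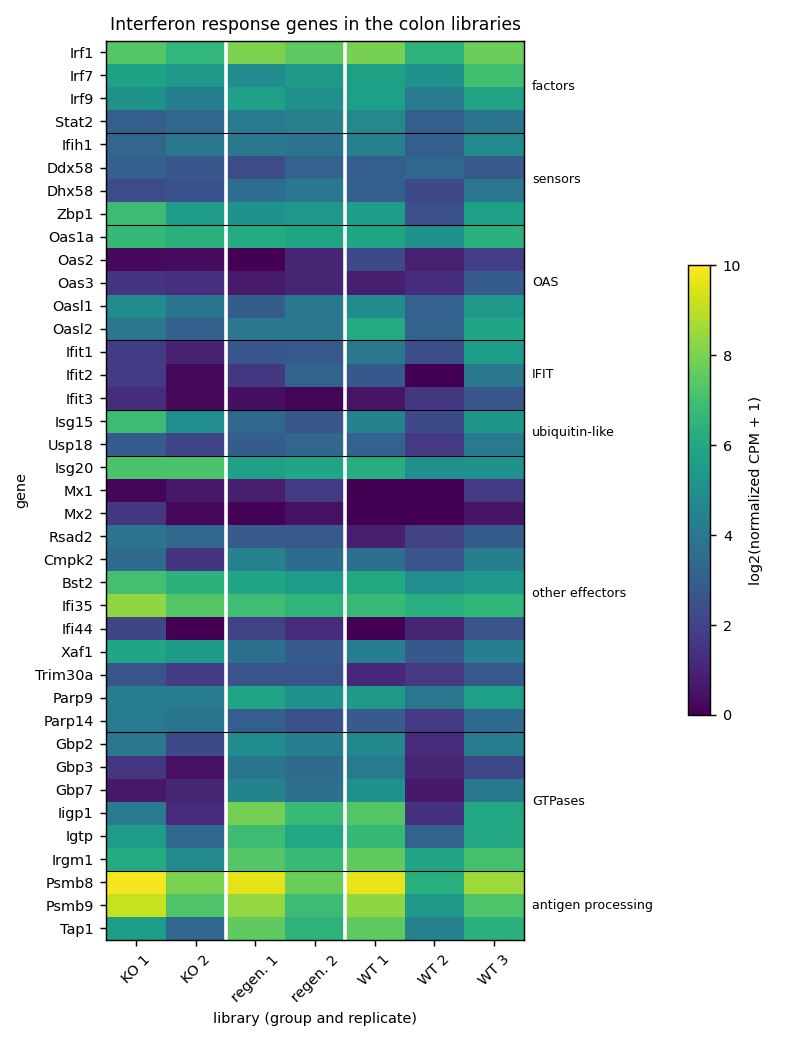
Levels of the 39 interferon response genes in the 7 colon libraries, as log2 of normalized CPM plus 1 (color), with genes in rows by role and libraries in columns. Wild type replicate 2 is low for most of the GTPases and antigen processing genes, and the KO libraries are low for Gbp7 and high for Ifi35.

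**Figure D2:**
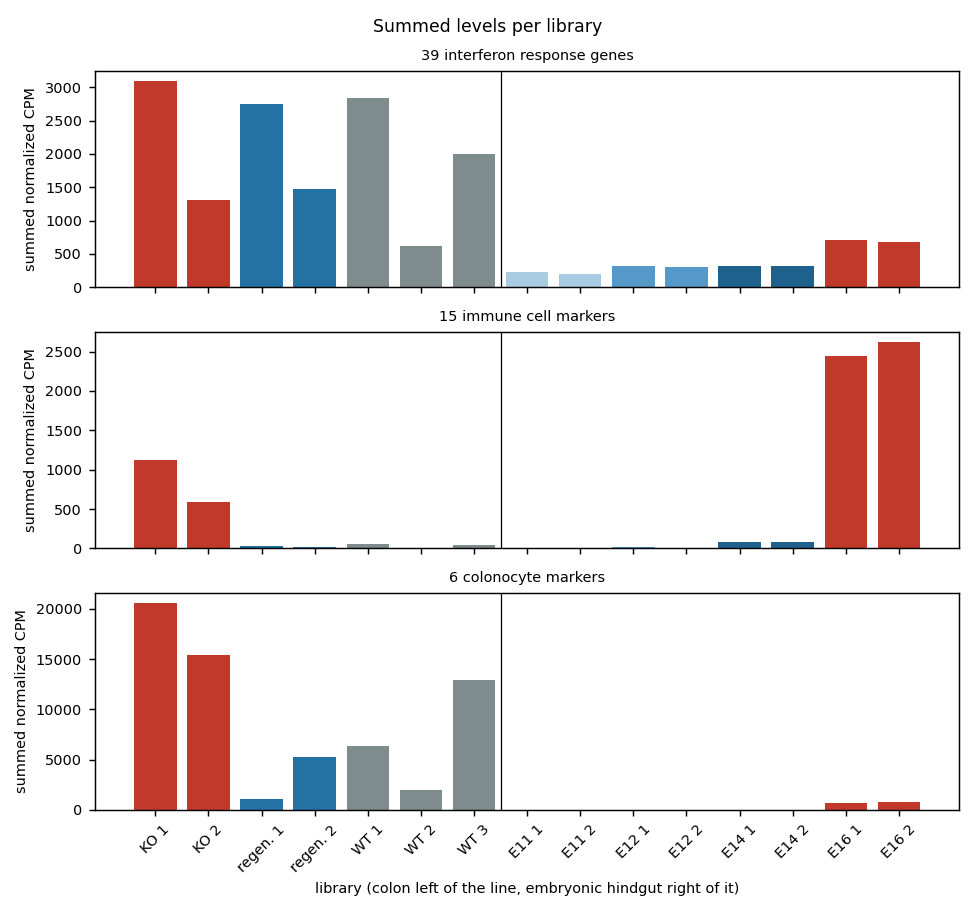
Normalized CPM summed over the 39 genes in each bulk library, beside the summed immune and colonocyte markers. Libraries are shown singly, with the colon libraries left of the line and the hindgut ages to its right. The interferon response sums of the 3 colon groups overlap, and the sums of the hindgut are highest at E16.

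Against wild type stem cells, Ascl2 KO cells had higher levels of 4 effectors and lower levels of 1 IFIT gene and 1 guanylate-binding protein. By edgeR's quasi-likelihood test with Benjamini-Hochberg adjustment over all 13911 genes tested, 6 of the 39 genes (15.4%) differed at an adjusted p below 0.05, against 36.2% of all genes. Separately, 4 genes (10.3%) rose, against 18.8% of all genes, and 2 (5.13%) fell, against 17.4%. The median log2 fold change over the 39 genes was -0.65, beside -0.02 over all genes. It ran from -1.03 to -0.15 with 1 library left out (-0.15 without wild type replicate 3), and was 0.0046 with the replicate number as a block, where 9 genes were called up and 3 down. With library size as the only scaling 13 genes were called, all down, and the median was -1.63, beside -1.001 over all genes.

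The genes that rose belong to the other effectors, of which 4 of 12 passed. Isg20, a nuclease that degrades single-stranded RNA, had 143 and 142 CPM in the KO libraries, against 73.6, 31.4 and 33.6 CPM in the wild type libraries. It stood higher in both KO libraries than in any wild type library (fold change on the log2 scale 1.63, SE 0.36, adjusted p = 0.00719). Ifi35, an interferon-induced leucine zipper protein, had 324 and 159 CPM in the KO libraries, against 109, 79.6 and 94.6 CPM in the wild type libraries, again without overlap (fold change on the log2 scale 1.35, SE 0.301, adjusted p = 0.00776). Xaf1, a promoter of apoptosis that binds the caspase inhibitor XIAP, had 58.7 and 43.3 CPM in the KO libraries, against 18.6, 5.67 and 18.3 CPM in the wild type libraries (fold change on the log2 scale 1.84, SE 0.51, adjusted p = 0.0201). Bst2, tetherin, which holds budding virus at the cell surface, had 131 and 85.3 CPM in the KO libraries, against 66.5, 28.9 and 38.9 CPM in the wild type libraries (fold change on the log2 scale 1.27, SE 0.36, adjusted p = 0.0231). For Xaf1 and Bst2 too, both KO libraries lay above every wild type library; this was so for 7 of the 39 genes, and for 29.5% of all genes. Isg20 kept its call whichever library was left out (highest adjusted p = 0.0416). Without KO replicate 1, Ifi35 missed the threshold (adjusted p = 0.0974), as did Bst2 (up to 0.181, also lost without wild type replicate 3) and Xaf1 (up to 0.117, also lost without KO replicate 2).

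The genes that fell were Ifit1 and Gbp7. Ifit1, which binds viral RNA that lacks the host cap modification, had 2.45 and 0.916 CPM in the KO libraries, against 15.2, 4.296 and 47.1 CPM in the wild type libraries (fold change on the log2 scale -3.72, SE 1.003, adjusted p = 0.0184). Both KO libraries were below every wild type library. Gbp7 had 0.543 and 1.1 CPM in the KO libraries, against 32.6, 0.614 and 15.6 CPM in the wild type libraries (fold change on the log2 scale -4.302, SE 1.39, adjusted p = 0.0387); wild type replicate 2 lay within the range of the KO libraries. Ifit1 missed the threshold without KO replicate 1, KO replicate 2 or wild type replicate 3 (adjusted p up to 0.119), and Gbp7 kept its call only when wild type replicate 2 was the library left out (adjusted p up to 0.196 otherwise). The other GTPases had negative log2 fold changes too, from -3.06 for Iigp1 to -0.65 for Gbp2, and none of those 5 passed. Iigp1 had 16.6 and 1.28 CPM in the KO libraries, against 159, 1.69 and 62.7 CPM in the wild type libraries (adjusted p = 0.148), and Igtp had 44.7 and 9.16 CPM in the KO libraries, against 104, 8.15 and 64.1 CPM in the wild type libraries (adjusted p = 0.384); the groups overlapped, with wild type replicate 2 among or below the KO values. With that library left out, 12 of the 39 genes were called, 4 up and 8 down; without KO replicate 1 the number was 2, and without KO replicate 2 it was 3.

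The antigen processing genes lie side by side on chromosome 17 (GRCm38.p6), with Psmb9 at chr17:34182030-34187330, Tap1 at chr17:34187556-34197225 and Psmb8 at chr17:34198195-34201454. Psmb8 and Psmb9 encode catalytic subunits of the immunoproteasome, and Tap1 encodes part of the transporter that carries peptides into the endoplasmic reticulum. None of the 3 passed. Psmb8 had 929.7 and 256 CPM in the KO libraries, against 806, 79.5 and 369 CPM in the wild type libraries (adjusted p = 0.6898), and its log2 fold change of 0.504 turned to -0.49 with library size as the only scaling and to -0.53 with offsets for genomic span. Psmb9 had 576 and 151 CPM in the KO libraries, against 324, 41.8 and 149 CPM in the wild type libraries, and Tap1 had 46.01 and 9.16 CPM in the KO libraries, against 187, 20.7 and 83.1 CPM in the wild type libraries. Within a library, the ratio of Psmb9 to Tap1 CPM was 12.5 and 16.4 in the KO libraries and 1.73 and 1.34 in the regenerating libraries, against 1.74, 2.01 and 1.79 in the wild type libraries. The KO ratios lay far above the other 5, whatever the scaling between libraries. Tap1 spans 9670 bases and Psmb9 5301; both lie in the class of shortest genes, and the part of gene length in this ratio was not tested.

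**Figure D3:**
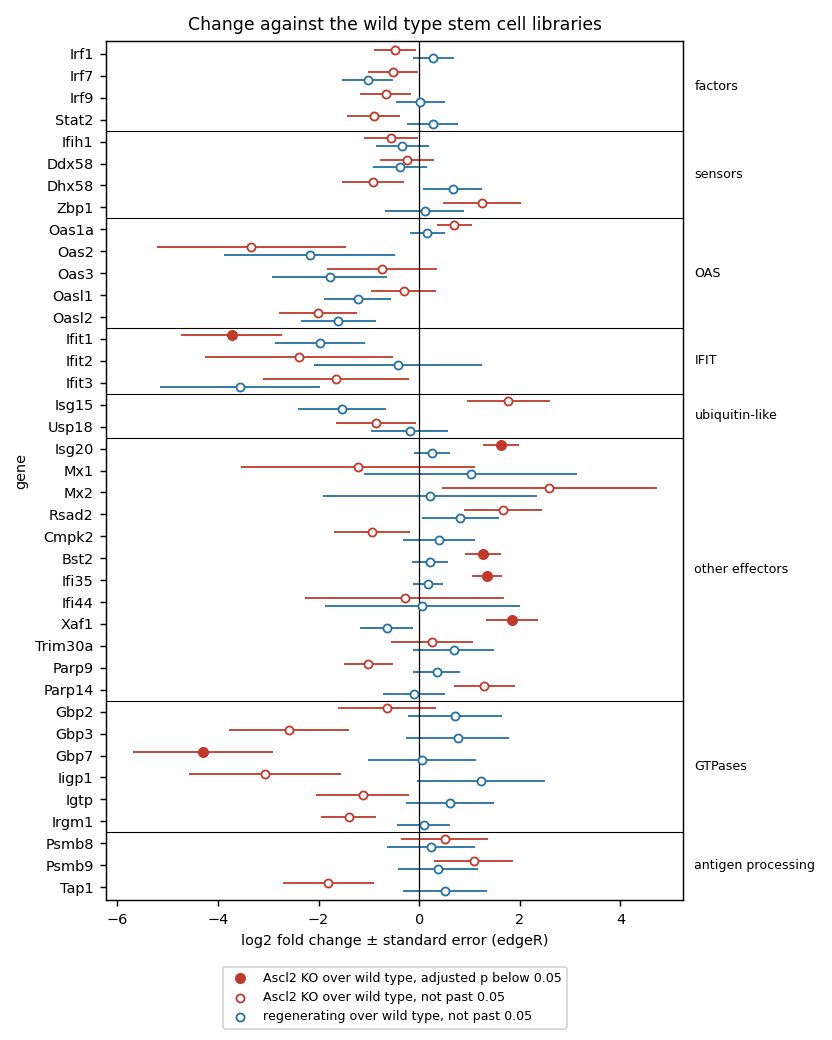
Log2 fold changes of the 39 genes for KO against wild type and regenerating against wild type (points, with bars of 1 SE), in rows by role. Filled points passed an adjusted p of 0.05 in edgeR's quasi-likelihood test. The 6 GTPases lie left of 0 for KO against wild type, and no gene passed in the regenerating comparison.

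No transcription factor, sensor, OAS gene or gene of the ISG15 system passed in KO against wild type cells. Irf1, the main factor induced by interferon gamma, had 162 and 98.5 CPM in the KO libraries, against 245, 88.1 and 214 CPM in the wild type libraries. Irf7, which drives type I interferon genes, had 55.1 and 42.1 CPM in the KO libraries, against 50.5, 34.1 and 124 CPM in the wild type libraries. Irf9 had 32.9 and 19.1 CPM in the KO libraries, against 49.9, 17.04 and 56.3 CPM in the wild type libraries, and Stat2 had 7.06 and 9.25 CPM in the KO libraries, against 25.4, 7.04 and 13.3 CPM in the wild type libraries. The groups overlapped for all 4 factors, whose log2 fold changes ran from -0.904 for Stat2 to -0.49 for Irf1; that of Irf7 was -0.52 and was 0.20 when wild type replicate 3 was left out. Isg15, a ubiquitin-like modifier, had 115 and 29.2 CPM in the KO libraries, against 21.3, 3.62 and 38.5 CPM in the wild type libraries (fold change on the log2 scale 1.77, SE 0.82, adjusted p = 0.124). Only KO replicate 1 was above all wild type libraries, and the fold change of Isg15 was -0.01 with offsets for genomic span. The protease that removes it, Usp18, had 6.43 and 3.299 CPM in the KO libraries, against 7.896, 2.16 and 16.4 CPM in the wild type libraries.

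The scaling of the KO libraries changed these counts. With library size as the only scaling, the median of all genes moved to -1.001 and 13 of the 39 genes were called, none up and 13 down. The 4 genes that rose all lie in the class of shortest genomic span, which holds 19 of the 39. Offsets that remove the trend with genomic span gave 5 calls, 3 up and 2 down, of which 4 were among the 6; Bst2 and Gbp7 were lost. The markers of immune cells moved with the group as well: 5 of the 14 tested rose (Csf1r, S100a8, S100a9, Tyrobp and Fcer1g) and none fell. The call of Csf1r rests on 8 and 4 counts in the KO libraries and 0 in each wild type library. The other immune markers tested, Ptprc among them, did not pass. Of the 8 stromal markers 6 rose. Among all genes 18.8% rose. The part of those cells in the interferon response genes was not tested.

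In the rest of the pathway, the ligands were nearly absent from the colon libraries: of 10 interferon genes, Ifna1, Ifna2, Ifna4, Ifna5, Ifne and Ifnl2 had no count in any of the 7 libraries, Ifng reached at most 0.408 CPM, and none passed the filter on low counts. Of 10 receptor and transducer genes, 3 fell in KO cells and none rose, against 17.4% and 18.8% of all genes. Ifngr1, the ligand-binding chain of the interferon gamma receptor, had 100.2 and 139 CPM in the KO libraries, against 237, 190.4 and 275 CPM in the wild type libraries (fold change on the log2 scale -0.97, SE 0.24, adjusted p = 0.0126), Ifnar1 had 8.97 and 9.896 CPM in the KO libraries, against 17.9, 18.8 and 23.8 CPM in the wild type libraries (adjusted p = 0.0319) and Il10rb, shared by the interferon lambda receptor, had 45.6 and 29.4 CPM in the KO libraries, against 59.1, 56.5 and 99.8 CPM in the wild type libraries (adjusted p = 0.0475). The Ifngr1 call was lost without KO replicate 1 and with offsets for genomic span (adjusted p up to 0.102), and the Ifnar1 call under 7 of the alternatives (up to 0.125) and the Il10rb call under 10 of them (up to 0.2601). Ifnlr1, the specific chain of the interferon lambda receptor, had 11.7 and 11 CPM in the KO libraries, against 0.176, 1.64 and 3.33 CPM in the wild type libraries; the KO libraries were above all wild type libraries, with an adjusted p of 0.0521.

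Of 11 genes that induce interferons, 5 fell in KO cells and none rose, where 17.4% of all genes fell and 18.8% rose. Mavs, the mitochondrial adaptor of the RNA sensors, had 10.4 and 13.7 CPM in the KO libraries, against 52.8, 50 and 37.6 CPM in the wild type libraries (fold change on the log2 scale -1.96, SE 0.33, adjusted p = 0.00197). Irf8 had 104 and 57.7 CPM in the KO libraries, against 214, 177 and 166 CPM in the wild type libraries (adjusted p = 0.0103; up to 0.0705 without KO replicate 2), and Ikbke, a kinase that activates IRF3 and IRF7, had 10.2 and 13.2 CPM in the KO libraries, against 34.9, 33.2 and 23.1 CPM in the wild type libraries (adjusted p = 0.0126; 0.0802 without KO replicate 1). None of 6 negative regulators passed. Of 10 MHC class I genes, 3 rose and 3 fell, against the same shares of all genes. The peptide trimming enzyme Erap1 had 13.7 and 19.2 CPM in the KO libraries, against 90.3, 66.8 and 64.2 CPM in the wild type libraries (fold change on the log2 scale -2.16, SE 0.303, adjusted p = 0.000724), and the loading factor Tapbp had 104 and 74.9 CPM in the KO libraries, against 533, 256 and 396 CPM in the wild type libraries (fold change on the log2 scale -2.14, SE 0.33, adjusted p = 0.001198). Both kept their calls under every alternative. The immunoproteasome subunit Psmb10 had 1239 and 667 CPM in the KO libraries, against 471, 233 and 386 CPM in the wild type libraries (fold change on the log2 scale 1.39, SE 0.35, adjusted p = 0.0139) and lost its call without KO replicate 1, with library size alone and with offsets for genomic span (adjusted p up to 0.684). The direction within this list therefore differed by gene.

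Between regenerating and wild type cells no interferon response gene passed the test. By edgeR's quasi-likelihood test 0 of 39 passed, against 0.331% of all genes (0.302% up and 0.0288% down), and 0 had an unadjusted p below 0.05; DESeq2 also called 0, with 5 at an unadjusted p below 0.05. The count was 0 under every scaling, filter and left-out library tried. The median log2 fold change was 0.16, beside 0.01 over all genes, and its sign was not stable: it ran from -0.25 without wild type replicate 2 to 0.32 without wild type replicate 3, and was 0.56 with the replicate block and -0.007 with library size alone. No gene had both regenerating libraries above every wild type library (17.6% of all genes did), and Ifit3 alone had both below (11.3% of all genes). The spread of the wild type group, given above, limits what 2 libraries against 3 can show here.

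Apart from Ifit3, the ranges of the regenerating and wild type libraries overlapped for every gene, though single values could lie outside the wild type range. Irf1 had 257 and 186 CPM in the regenerating libraries, against 245, 88.1 and 214 CPM in the wild type libraries. Bst2 had 60.2 and 43.6 CPM in the regenerating libraries, against 66.5, 28.9 and 38.9 CPM in the wild type libraries. Psmb8 had 771 and 214 CPM in the regenerating libraries, against 806, 79.5 and 369 CPM in the wild type libraries. In each, at least 1 regenerating library lay between wild type libraries. Iigp1 had 242 and 107 CPM in the regenerating libraries, against 159, 1.69 and 62.7 CPM in the wild type libraries, so that its highest value of all 7 was in a regenerating library (log2 fold change 1.23 with an SE of 1.27, adjusted p = 0.887). Isg15 had 9.18 and 5.41 CPM in the regenerating libraries, against 21.3, 3.62 and 38.5 CPM in the wild type libraries. Irf7 had 26.98 and 41.6 CPM, Irf9 52.5 and 31.1 CPM and Stat2 17.1 and 19.7 CPM in the regenerating libraries. Every one of the 10 receptor, 11 induction, 6 negative regulator and 10 MHC class I genes missed the threshold as well. Of immune markers, 0 of 14 passed.

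Set against the regenerating cells, a comparison that shares the KO libraries with the one above, 5 of the 39 genes passed: 4 higher and 1 lower in KO, against 31.4% of all genes called. Of all 13911 genes tested, 2139 were higher and 2223 lower in KO. With library size as the only scaling 1 of the 39 genes was higher and 9 were lower. Isg15 had 115 and 29.2 CPM in the KO libraries, against 9.18 and 5.41 CPM in the regenerating libraries (fold change on the log2 scale 3.31, SE 0.99, adjusted p = 0.0324). Xaf1 had 58.7 and 43.3 CPM in the KO libraries, against 11.8 and 6.28 CPM in the regenerating libraries (fold change on the log2 scale 2.49, SE 0.59, adjusted p = 0.0122). These were without overlap, as were Isg20 (143 and 142 CPM in KO, 49.9 and 59.9 CPM in regenerating cells; fold change on the log2 scale 1.38, SE 0.402, adjusted p = 0.0291) and Ifi35 (324 and 159 CPM in KO, 119.8 and 93.5 CPM in regenerating cells; fold change on the log2 scale 1.18, SE 0.34, adjusted p = 0.0275). Gbp7 had 0.543 and 1.1 CPM in the KO libraries, against 22.04 and 11.9 CPM in the regenerating libraries (fold change on the log2 scale -4.36, SE 1.43, adjusted p = 0.0459).

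All 6 GTPases had both KO libraries below both regenerating libraries, an arrangement found for 15 of the 39 genes and 37.0% of all genes; the reverse was found for 11 of the 39 and 32.8% of all genes. Iigp1 had 16.6 and 1.28 CPM in the KO libraries, against 242 and 107 CPM in the regenerating libraries (log2 fold change -4.29 with an SE of 1.65, adjusted p = 0.079). Gbp2 had 14.8 and 3.57 CPM in KO and 27.7 and 19.2 CPM in regenerating libraries, and Gbp3 had 1.99 and 0.367 CPM in KO and 13.9 and 10.4 CPM in regenerating libraries. Their separation was complete, yet of the 6 only Gbp7 passed the test. Of the 10 MHC class I genes 4 rose (Psmb10, Psme2, Psme1 and B2m) and 3 fell (Tapbp, Erap1 and Tap2). Among all 13911 genes tested, 2139 rose and 2223 fell. B2m, the light chain of MHC class I, had 7767 and 3059.7 CPM in KO and 1328 and 1151 CPM in regenerating libraries (adjusted p = 0.0426; up to 0.281 under the alternatives). No call among the 39 genes held whichever library was left out: 0 genes were called without KO replicate 1 or without regenerating replicate 2, 1 without regenerating replicate 1, 3 without KO replicate 2 and 11 without wild type replicate 2.

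In the hindgut epithelium, interferon response genes were low at E11 and most stood higher at E16. At E11, 8 of the 39 genes had no count in either library (Zbp1, Oas2, Oasl1, Oasl2, Mx1, Ifi44, Trim30a and Psmb8), and 8 exceeded 10 CPM in both (Irf1, Irf9, Stat2, Ddx58, Ifit2, Parp9, Gbp7 and Irgm1). At E16, 20 exceeded 10 CPM in both libraries. The sum of the 39 genes was 221 and 203 CPM at E11, 318 and 306 CPM at E12, 319 and 313 CPM at E14 and 705 and 677 CPM at E16. Among genes with counts in both replicates, the median ratio between them was 1.46-fold at E11 (21 genes), 1.596-fold at E12 (29 genes), 1.22-fold at E14 (35 genes) and 1.2-fold at E16 (37 genes). At E11 the ratio exceeded 2-fold for 8 of the 21 and reached 39.4-fold, and 18 of the 39 genes were at 0 in at least 1 library. At E16 the widest ratio was that of Mx2, with 4.87 and 0.0752 CPM. In the fit over the 8 libraries 37 genes were tested, Ifi44 and Iigp1 having too few counts. Between E16 and E11, 23 of the 37 (62.2%) differed, against 55.7% of all 16481 genes; 22 (59.5%) rose, against 29.6% of all genes, and 1 fell, against 26.2%. Both E16 libraries lay above both E11 libraries for 28 of the 37, against 41.4% of all genes. The median log2 fold change was 3.29, beside 0.05 over all genes.

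Markers of other cells rose at the same age. Summed immune markers were 10.7 and 7.21 CPM at E11, 13.5 and 7.77 CPM at E12, 77.9 and 79.9 CPM at E14 and 2448 and 2619.9 CPM at E16, and 13 of the 15 rose at E16 against E11. Summed stromal markers were 175 and 164 CPM at E11, 303 and 218 CPM at E12, 200.3 and 209 CPM at E14 and 8878 and 7671 CPM at E16, with 7 of 8 rising. Ptprc, the pan-leukocyte antigen CD45, had 0 and 0 CPM at E11, 1.31 and 0 CPM at E12, 2.003 and 1.66 CPM at E14 and 95.1 and 117 CPM at E16. The part of these cells in the rise of the interferon response genes was not tested. At E16 no immune or stromal marker was at 0, against 9 or 10 of the 15 immune markers at E11. Summed epithelial markers lay between 3188 and 3303 CPM at E11 and between 8108 and 8188 CPM at E16. At E14 the immune sum was still far below that of E16, and the changes up to that age are given separately.

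**Figure D4:**
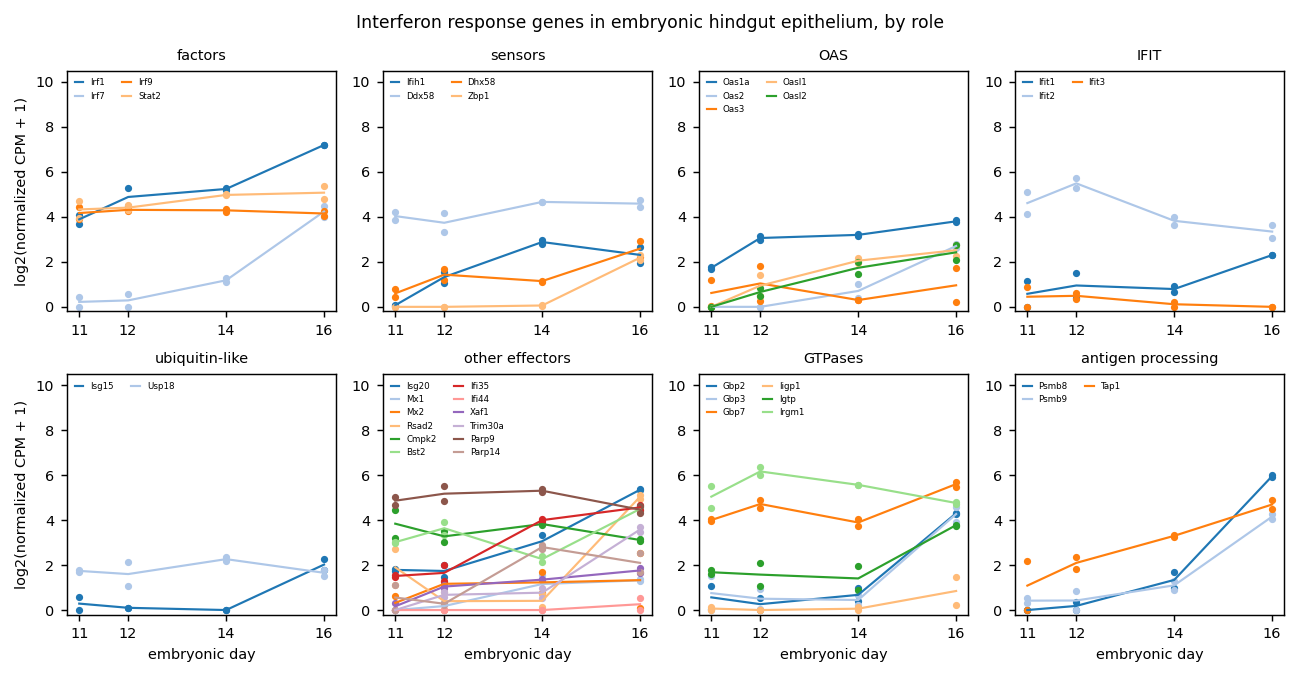
Level of each interferon response gene in the hindgut, as log2 of normalized CPM plus 1 against embryonic day, with 1 panel per role, points for single libraries and lines through the means of 2 libraries. Antigen processing genes, Irf1 and Isg20 are highest at E16, whereas Ifit2 is lower at E14 and E16 than at E12.

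Among the factors, Irf1 and Irf7 rose and Irf9 and Stat2 did not pass. Irf1 had 16.2 and 11.8 CPM at E11, 38 and 21.4 CPM at E12, 38.4 and 35.3 CPM at E14 and 145 and 146 CPM at E16 (fold change on the log2 scale 3.38, SE 0.29, adjusted p = 6.44e-05 for E16 against E11). Irf7 had 0 and 0.357 CPM at E11, 0 and 0.488 CPM at E12, 1.13 and 1.41 CPM at E14 and 21.3 and 14.97 CPM at E16 (fold change on the log2 scale 6.58, SE 1.56, adjusted p = 0.00847). Its E16 libraries stood far above all earlier ones, and its call was lost without E16 replicate 1 (adjusted p = 0.0529). Irf9 had 20.5 and 14.1 CPM at E11, 19.6 and 18.2 CPM at E12, 19.6 and 17.6 CPM at E14 and 15.5 and 18.1 CPM at E16 with no ordering by age (log2 fold change -0.04), and Stat2 had 14.6 and 24.97 CPM at E11, 21.96 and 18.7 CPM at E12, 30.9 and 29.99 CPM at E14 and 39.8 and 26.9 CPM at E16. Both were detected in both E11 libraries.

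Of the 4 sensors 3 rose. Ifih1, which binds long double-stranded RNA, had 0.0376 and 0.0649 CPM at E11, 1.96 and 1.12 CPM at E12, 6.79 and 5.97 CPM at E14 and 5.36 and 2.86 CPM at E16; its E16 to E11 ratio was 81.04, with a counting interval of 27.1 to 398 because few E11 counts were present (fold change on the log2 scale 6.17, SE 0.82, adjusted p = 0.000504). It was higher at E14 than at E16. Dhx58, the regulatory sensor LGP2, had 0.338 and 0.714 CPM at E11, 2.18 and 1.29 CPM at E12, 1.18 and 1.24 CPM at E14 and 6.72 and 3.69 CPM at E16 (fold change on the log2 scale 3.29, SE 0.77, adjusted p = 0.00812; 0.0723 without E16 replicate 1). Zbp1, which senses Z-form nucleic acid, had 0 and 0 CPM at E11, 0 and 0 CPM at E12, 0.0435 and 0.0415 CPM at E14 and 3.88 and 3.24 CPM at E16 and was at least 68.7-fold higher at E16 than the floor of 3 counts over the E11 group (adjusted p = 0.00345). Ddx58, the sensor RIG-I, had 13.7 and 17.3 CPM at E11, 16.98 and 8.89 CPM at E12, 24.6 and 24.1 CPM at E14 and 20.5 and 25.96 CPM at E16 and did not pass (adjusted p = 0.172).

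Of the 5 OAS genes, whose products synthesise the activator of RNase L or are related to those enzymes, 4 rose. Oas1a had 2.22 and 2.43 CPM at E11, 6.93 and 7.77 CPM at E12, 7.88 and 8.503 CPM at E14 and 12.5 and 13.4 CPM at E16 (fold change on the log2 scale 2.47, SE 0.35, adjusted p = 0.000712). Oas2, Oasl1 and Oasl2 had no count at E11. At E16 Oas2 had 6.04 and 5.04 CPM (at least 107-fold higher, adjusted p = 0.00266), Oasl1 had 5.79 and 3.84 CPM (at least 94.01-fold, adjusted p = 0.001401) and Oasl2 had 5.79 and 3.24 CPM (at least 88.8-fold, adjusted p = 0.000893). Levels at E16 stayed below 15 CPM for each of the 5. Oas3 had 1.28 and 0.0325 CPM at E11, 2.504 and 0.209 CPM at E12, 0.218 and 0.249 CPM at E14 and 2.28 and 0.1505 CPM at E16, with a spread within ages as wide as between them. These 4 calls held with every library left out. Oasl1 and Oasl2 were already detected at E12, with 1.67 and 0.383 CPM and 0.762 and 0.418 CPM.

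Of the 3 IFIT genes 1 fell at E16 against E11 and none rose. Ifit2, which binds viral RNA and restrains translation, had 33.7 and 16.3 CPM at E11, 37.4 and 51.5 CPM at E12, 11.6 and 14.9 CPM at E14 and 11.3 and 7.37 CPM at E16; it was the 1 gene of the 39 that fell between these ages (fold change on the log2 scale -1.41, SE 0.397, adjusted p = 0.0179). Both E16 libraries were below both E11 libraries, though the call was lost without E11 replicate 1 or E16 replicate 2 (adjusted p up to 0.1105). Ifit1 had 0 and 1.23 CPM at E11, 0.327 and 1.81 CPM at E12, 0.566 and 0.912 CPM at E14 and 3.88 and 3.99 CPM at E16 and Ifit3 had 0.864 and 0 CPM at E11, 0.544 and 0.279 CPM at E12, 0.174 and 0 CPM at E14 and 0 and 0 CPM at E16, neither passing. In the ISG15 system, Isg15 had 0 and 0.487 CPM at E11, 0.0726 and 0.0697 CPM at E12, 0 and 0 CPM at E14 and 2.403 and 3.84 CPM at E16 and missed the threshold at E16 against E11 (adjusted p = 0.0947), while against E14, where no count was present, it was at least 47.8-fold higher (adjusted p = 0.0224; up to 0.102 with 1 library left out). Usp18 had 2.22 and 2.47 CPM at E11, 3.41 and 1.08 CPM at E12, 4.14 and 3.48 CPM at E14 and 1.85 and 2.48 CPM at E16.

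Of 11 other effectors tested, 7 rose at E16 against E11. Isg20 had 2.56 and 2.34 CPM at E11, 1.78 and 2.998 CPM at E12, 5.83 and 9.17 CPM at E14 and 39.3 and 40.3 CPM at E16 (fold change on the log2 scale 4.02, SE 0.39, adjusted p = 0.000116). Bst2 had 6.99 and 7.21 CPM at E11, 14.2 and 9.202 CPM at E12, 3.35 and 4.31 CPM at E14 and 22.7 and 20.4 CPM at E16 (fold change on the log2 scale 1.603, SE 0.33, adjusted p = 0.00467), with the lowest levels at E14. Ifi35 had 1.77 and 1.95 CPM at E11, 1.45 and 3.03 CPM at E12, 15.4 and 14.6 CPM at E14 and 21.01 and 24.4 CPM at E16 (fold change on the log2 scale 3.61, SE 0.43, adjusted p = 0.000288), with most of its rise before E14. Trim30a had 0 and 0 CPM at E11, 0.472 and 0.732 CPM at E12, 1.001 and 0.456 CPM at E14 and 10.2 and 11.7 CPM at E16, at least 209-fold higher than the E11 floor (adjusted p = 0.000299). These 4 kept their calls in each left-out fit. Rsad2, viperin, which makes a chain-terminating nucleotide, had 5.49 and 1.14 CPM at E11, 0.726 and 0 CPM at E12, 0.0871 and 0.622 CPM at E14 and 34.1 and 29.7 CPM at E16 (fold change on the log2 scale 3.27, SE 1.195, adjusted p = 0.0477). It was low from E12 to E14 and its call was lost without E11 replicate 2 or any E14 or E16 library (adjusted p up to 0.169). Xaf1 had 0 and 0.2597 CPM at E11, 0.944 and 1.19 CPM at E12, 1.57 and 1.53 CPM at E14 and 2.16 and 2.63 CPM at E16 (adjusted p = 0.0296; up to 0.106 without an E14 or E16 library). Mx1, a dynamin-like antiviral GTPase, had no count at E11 and 1.42 and 1.58 CPM at E16 (at least 28.5-fold, adjusted p = 0.0184; up to 0.0677 without an E16 library). Mx2, Cmpk2, Parp9 and Parp14 did not pass, and Cmpk2 and Parp9 were lower on average at E16 than at E11.

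Of 5 GTPases tested, 3 rose. Gbp7 had 15.4 and 14.6 CPM at E11, 22.03 and 28.9 CPM at E12, 15.3 and 12.5 CPM at E14 and 43.9 and 51.3 CPM at E16 (fold change on the log2 scale 1.67, SE 0.22, adjusted p = 0.000553). Gbp2 had 0.0376 and 1.104 CPM at E11, 0.435 and 0 CPM at E12, 0.305 and 0.954 CPM at E14 and 18.4 and 19.03 CPM at E16 (fold change on the log2 scale 5.005, SE 1.51, adjusted p = 0.02397), and Igtp, the GTPase IRGM3, had 1.99 and 2.43 CPM at E11, 3.27 and 1.08 CPM at E12, 2.83 and 0.8295 CPM at E14 and 12.9 and 12.5 CPM at E16 (fold change on the log2 scale 2.52, SE 0.75, adjusted p = 0.0229). Gbp2 and Igtp were low and level up to E14 and lost their calls when an E16 library was left out (adjusted p up to 0.08703 and 0.0839; Igtp also without an E11 library). Gbp3 had 1.84 and 0 CPM at E11, 0.0363 and 0.941 CPM at E12, 0.174 and 0.581 CPM at E14 and 23.2 and 14.3 CPM at E16 and passed against E14 (adjusted p = 0.0456) but not against E11 (adjusted p = 0.0627). Irgm1, a regulator of the other IRG proteins, had 45.4 and 22.3 CPM at E11, 62.2 and 80.1 CPM at E12, 46.3 and 46.3 CPM at E14 and 25.3 and 26.9 CPM at E16 and did not pass. Iigp1 had 0 and 0.0974 CPM at E11, 0 and 0 CPM at E12, 0.0871 and 0 CPM at E14 and 0.185 and 1.73 CPM at E16, too few counts to test.

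All 3 antigen processing genes rose. Psmb8 had 0 and 0 CPM at E11, 0.2903 and 0 CPM at E12, 1.001 and 2.198 CPM at E14 and 59.4 and 62.7 CPM at E16, at least 1166-fold higher at E16 than the E11 floor (adjusted p = 0.000211). Psmb9 had 0.225 and 0.455 CPM at E11, 0.798 and 0 CPM at E12, 0.871 and 1.45 CPM at E14 and 15.6 and 18.1 CPM at E16 (fold change on the log2 scale 5.601, SE 1.34, adjusted p = 0.00887), and Tap1 had 0 and 3.51 CPM at E11, 2.58 and 4.11 CPM at E12, 8.53 and 9.17 CPM at E14 and 28.96 and 21.3 CPM at E16 (fold change on the log2 scale 3.82, SE 1.31, adjusted p = 0.0382). Tap1 had counts in both libraries from E12 on and lost its call without an E14 or an E16 library (adjusted p up to 0.133); Psmb8 and Psmb9 kept theirs throughout. Across the 23 genes called at E16 against E11, 14 kept their calls whichever library was left out, and the number called ran from 15 without E16 replicate 1 to 25 without E11 replicate 2.

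The steps between neighbouring ages were unequal. From E11 to E12, 4 genes rose and none fell, against 2.63% of all genes called (1.76% up): Ifih1, Oasl1, Oasl2 and Trim30a, each from at most 3 counts at E11. None of the 4 held in every left-out fit, and 1 gene was called without E11 replicate 1 and 0 without E12 replicate 1, without any 1 E14 or E16 library, with the replicate number as a block or with only these ages in the fit. From E12 to E14, 5 rose and 3 fell, against 28.3% of all genes called (14.4% up and 13.9% down). Without overlap, 19 genes lay above and 7 below, against 34.3% and 35.8% of all genes. Those that rose were Ifi35 (fold change on the log2 scale 2.73, SE 0.41, adjusted p = 0.00312), Isg20, Psmb8, Oas2 and Ifih1, while Bst2, Ifit2 and Gbp7 fell by 1.61, 1.75 and 0.87 on the log2 scale. Ifi35 alone kept its call with each library left out; 2 genes were called when either E14 library was left out, 3 without E12 replicate 2 and 5 when either E16 library was left out. Over this step 6 of the 15 immune markers rose.

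From E14 to E16, 37.8% of the 37 genes tested were called, against 39.6% of all genes. Of them 13 (35.1%) rose, against 20.6% of all genes, and 1 (2.7%) fell, against 19.0%. Bst2 (fold change on the log2 scale 2.49, SE 0.35, adjusted p = 0.00131), Gbp7 (fold change on the log2 scale 1.78, SE 0.23, adjusted p = 0.0009099), Irf1 (fold change on the log2 scale 1.98, SE 0.27, adjusted p = 0.00126), Isg20 (fold change on the log2 scale 2.405, SE 0.36, adjusted p = 0.00189) and Psmb8 (fold change on the log2 scale 5.25, SE 0.74, adjusted p = 0.00213) kept their calls in every left-out fit. The others that rose were Zbp1, Isg15, Rsad2, Trim30a, Gbp2, Gbp3, Igtp and Psmb9, and Parp9, the partner of the ubiquitin ligase DTX3L, was the gene that fell, with 18.9 and 23.3 CPM at E16, against 40.7 and 36.5 CPM at E14. Each of these 9 was lost with at least 1 library left out, and 6 genes were called when either E16 library was left out and 7 when either E14 library was. Bst2 and Gbp7 fell between E12 and E14 and rose between E14 and E16. All these comparisons share libraries with their neighbours.

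Most receptor, induction and MHC class I genes rose in the hindgut as well. Of 10 ligand genes only Ifng, interferon gamma, was tested: it had no count from E11 to E14 and 0.924 and 2.11 CPM at E16 (adjusted p = 0.0223; up to 0.188 under the alternatives). Of 10 receptor and transducer genes 9 rose at E16 against E11 and none fell, where 29.6% of all genes rose and 26.2% fell. Ifngr1 had 42.7 and 55.5 CPM at E11, 50.8 and 58.6 CPM at E12, 78.9 and 72.5 CPM at E14 and 275 and 256 CPM at E16 (fold change on the log2 scale 2.44, SE 0.15, adjusted p = 1.69e-05), Il10rb had 10.3 and 15.4 CPM at E11, 22.6 and 19.3 CPM at E12, 42.6 and 39.03 CPM at E14 and 100.01 and 101 CPM at E16 and Ifngr2 had 51.2 and 53.5 CPM at E11, 74.2 and 63.4 CPM at E12, 117 and 118 CPM at E14 and 147 and 149 CPM at E16. Ifnlr1 had 18.8 and 12.5 CPM at E11, 20.3 and 28.9 CPM at E12, 40.01 and 31.1 CPM at E14 and 16.9 and 12.9 CPM at E16, highest at E14, and fell at E16 against E14 (adjusted p = 0.0146). Of 11 induction genes 7 rose and none fell, led by Myd88, Ikbke and Irf5. Of 6 negative regulators 4 rose and 2 fell; Socs3, an inhibitor of JAK kinases, had 12.7 and 3.15 CPM at E11, 19.7 and 13.9 CPM at E12, 26.2 and 18.04 CPM at E14 and 403 and 362 CPM at E16 (fold change on the log2 scale 5.604, SE 0.59, adjusted p = 0.0001599). Of 9 tested MHC class I genes 7 rose, with H2-D1 at 16.1 and 19.7 CPM at E11, 12.1 and 17.8 CPM at E12, 25.5 and 25.96 CPM at E14 and 235 and 247 CPM at E16, and 2 fell, Psme1 and Psme2, which encode the proteasome activator PA28. The immune cell sum rose over the same ages, as given above.

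In the day 8 library, 3437 cells passed the filters (at least 1000 UMIs and 500 genes, at most 25% mitochondrial UMIs), with a median of 20324 UMIs. The 38 genes summed to 1738 CPM over all cells, with an exact 95% Poisson interval of 1729 to 1747 that covers counting error only, as do all intervals given for these cells. The same sum was 1519 CPM in barcodes with 100 or fewer UMIs, which hold free RNA. With 1 library there is no test, and values of clusters are descriptions. Cells were clustered without the 38 genes, which gave 10 clusters of 29 to 873 cells. No doublet was marked by the caller used, so doublets may remain. Only these 38 were left out, so related genes could enter the clustering. Ifit1bl1 was among the leading genes of cluster 6 (403 CPM, against 7.92 CPM in the other cells). Clusters are called by number and by their leading genes. Among clusters of at least 50 cells the summed level was highest in cluster 6, led by Tgm3, Saa1 and Car4 and holding the colonocyte markers Car4 and Slc26a3 (187 cells, 2417 CPM, 2375 to 2459), and lowest in cluster 2, led by Cma1, Reg4 and Nov (769 cells, 941 CPM, 922 to 961). Cluster 1, the largest, led by Nxpe2 and Mcm4, had 1848 CPM (873 cells, 1829 to 1866), and cluster 7, led by Reg3b and Reg3g, had 2096 CPM (176 cells, 2055 to 2138). Cluster 8, with 35 cells, had 2396 CPM (2052 to 2780), an interval that contains that of cluster 6.

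Cluster 6 held a set of genes at many times their level in cluster 1. Of the 38 genes, 21 were at least 2-fold higher in cluster 6 with counting intervals that did not overlap. By the 2-fold limit alone, without the condition on intervals, 17 of 33 with 50 or more UMIs in the pair were higher. The share among all genes with as many UMIs was 11.1%. Isg15 had 133 CPM (124 to 144) in cluster 6, against 6.87 CPM (5.79 to 8.102) in cluster 1, and 18.4 CPM (15.2 to 22.2) in the low-UMI barcodes, so that cluster 1 lay below the level of those barcodes and is read as background, and cluster 6 lay above it. Irf7 had 79.8 CPM (72.3 to 87.8) in cluster 6, against 7.697 CPM (6.55 to 8.99) in cluster 1. Zbp1 had 172 CPM (161 to 183) in cluster 6, against 14.6 CPM (13.02 to 16.4) in cluster 1. Against cluster 1, cluster 7 had 8 of 30 such genes at least 2-fold higher (8.13% of all genes) and 4 at least 2-fold lower (7.95%). It lay between clusters 6 and 1, with 56.9 CPM of Isg15, 43.3 CPM of Irf7 and 106 CPM of Zbp1. Gbp2 had 119 CPM (110.3 to 129) in cluster 6, against 19.8 CPM (17.97 to 21.9) in cluster 1, and here cluster 7 was the lowest of the 3 with 12.3 CPM. Ifit1 had 19.9 CPM (16.3 to 24.2) in cluster 6, against 0.0484 CPM (0.00123 to 0.2697) in cluster 1.

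Other genes did not follow this order. Psmb8 had 524 CPM (505 to 544) in cluster 6 and 696 CPM (672 to 721) in cluster 7, against 498 CPM (489 to 508) in cluster 1. Isg20 and Iigp1 were the 2 genes at least 2-fold lower in cluster 6 than in cluster 1, where 26.9% of all genes were that much lower. Iigp1 had 75.2 CPM (67.9 to 82.98) in cluster 6, against 275 CPM (268 to 282) in cluster 1, and 125 CPM (116 to 134) in the low-UMI barcodes, so its level in cluster 6 does not exceed that of free RNA. Irf1 had 198 CPM (187 to 211) in cluster 6, against 159 CPM (153 to 164) in cluster 1. Irf9 had 36.2 CPM in cluster 6, against 29.96 CPM in cluster 1, with overlapping intervals, and Stat2 had 20.1 CPM in cluster 6, against 8.67 CPM in cluster 1. Bst2 had 34.9 CPM (30.01 to 40.4) in cluster 6, against 66.6 CPM (63.1 to 70.2) in cluster 1.

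Cluster 2, whose leading genes are products of deep crypt secretory cells, had the low end of several genes. Of 30 genes with enough UMIs, 8 were at least 2-fold lower than in cluster 1 (Irf1, Parp9, Iigp1, Igtp, Irgm1, Psmb8, Psmb9 and Tap1), against 14.8% of all genes, and 4 were at least 2-fold higher, against 10.9%. Psmb8 had 168 CPM (159.9 to 177) in cluster 2, against 498 CPM (489 to 508) in cluster 1. Iigp1 had 71.6 CPM (66.3 to 77.2) in cluster 2, against 275 CPM (268 to 282) in cluster 1. Its level in cluster 2 does not exceed that of the low-UMI barcodes given above. Isg20 went the other way, with 62.4 CPM (57.4 to 67.6) in cluster 2, against 24.8 CPM (22.7 to 27.03) in cluster 1, and so did Rsad2, with 13.8 CPM (11.5 to 16.3) in cluster 2, against 1.11 CPM (0.706 to 1.67) in cluster 1. The median UMI count was 12374 in cluster 2 and 20608 in cluster 1.

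Shares of cells were compared after thinning each cell to 5000 UMIs. Isg15 was then detected in 25.1% of cells of cluster 6 and 18.97% of cluster 7, against 2.93% of cluster 1; the shares without thinning were 57.8%, 43.8% and 13.4% in the same order. Iigp1 was detected in 19.7% of cluster 6 and 13.4% of cluster 2, against 43.9% of cluster 1 (without thinning 36.4%, 19.5% and 63.7%). Its levels in clusters 6 and 2 did not exceed that of free RNA, so its shares there are not read as expression. Thinning left out 4 cells of cluster 6, 2 of cluster 7, 39 of cluster 2 and 19 of cluster 1. Within cluster 1, the cells with most Iigp1 (10% of the cluster) held 50.7% of its UMIs, and the highest cell held 84. Over the 854 thinned cells of cluster 1, Spearman's rho was 0.446 between Iigp1 and Igtp and -0.019 between Isg15 and Zbp1, while over the 183 thinned cells of cluster 6 it was 0.387 and 0.364 for the same pairs. Isg15 was in few thinned cells of cluster 1 (2.93%), at a level read as background. Its rho there therefore cannot show whether it varies with Zbp1, or whether the clusters differ in this. All these cells share 1 library, and the values are descriptions.

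**Figure D5:**
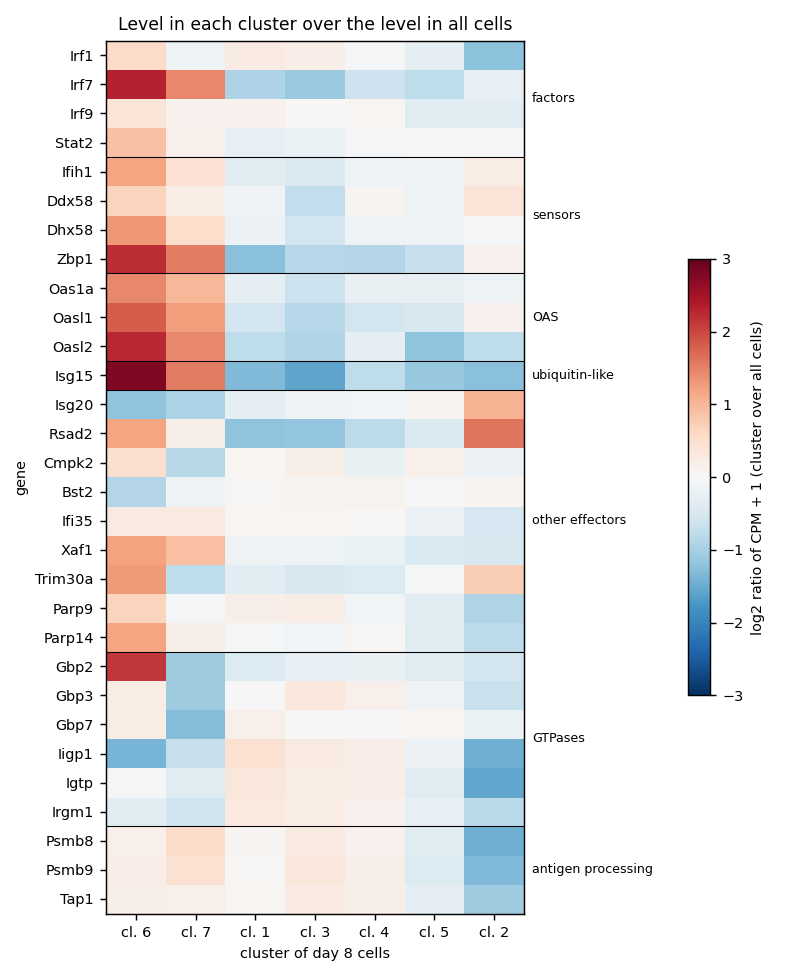
Level of interferon response genes in the day 8 clusters of at least 50 cells, as the log2 ratio to the level in all cells (color), for the 30 genes with at least 200 UMIs, with genes in rows by role and clusters in columns. Cluster 6 is high for Isg15, Irf7, Zbp1 and Gbp2, and cluster 2 is low for Iigp1, Igtp and the antigen processing genes.

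Of the rest of the pathway, a receptor chain and a ligand are described. Ifngr1 had 282 CPM (268 to 297) in cluster 6, against 70 CPM (66.4 to 73.7) in cluster 1. All 37 Ifng UMIs lay in cluster 8 (512 CPM (361 to 706)), a group of 35 cells led by Ccl5, Gzma and Rgs1 that also holds Ptprc and Cd3g; with a median of 1933 UMIs it is left unnamed. The summed genes gave 2396 CPM in cluster 8, as above. The 38 cells with a Ptprc UMI, which hold 174388 UMIs against 72214 in cluster 8, gave 1462 CPM for the summed genes (1288 to 1653), and the 3399 cells without one gave 1739 CPM (1730.0 to 1748).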

How the data were processed

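RNA was measured in 15 bulk libraries (7 of colon cells, 8 of hindgut) and 1 single-cell library; 3 ChIP-seq libraries were not used here. The bulk values are raw counts of reads in genes as deposited by the authors, made with STAR 2.5.3a and HTSeq on GRCm38 (mm10), per the submitters' processing notes. The deposited single-cell matrix holds raw UMI counts of all 6794880 barcodes (Cell Ranger 3.0.2, per the submitters' processing notes), and 5 entries of the bulk table that name no gene were left out of library sizes. The 39 genes, their roles, the pathway lists and the marker lists were chosen with earlier results of these data known.

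Colon and hindgut libraries were fitted separately with edgeR 4.0.16 in R 4.3.3: TMM scaling, the default filter on low counts by group (13911 and 16481 genes tested), a group-only model, the quasi-likelihood F test (two-sided) and Benjamini-Hochberg adjustment over all genes tested, with a threshold of 0.05. The script was tested on simulated counts. Genes that differed were named with values for each library, up to the 15 smallest p in a comparison, with Irf1, Irf7, Irf9, Stat2, Isg15, Bst2, Psmb8 and Iigp1 always named. Pathway genes named are Ifnlr1 and those called with the 3 smallest p of a list, and a few others chosen after their values were seen; the values of 1 gene are not reported here. Ratios against a group without counts use a floor of 3 counts over the group. The alternatives were another scaling (RLE), library size alone, no filter, DESeq2 1.42.0, the replicate number as a block, only the 2 groups compared and each library left out; offsets for genomic span were added after seeing the data. Single cells were filtered and clustered with scanpy 1.11.5 (2000 variable genes without the 38, 30 components, Leiden resolution 0.5), Scrublet marked 0 of 3437 cells, and intervals are exact Poisson intervals (95%).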

Additional observations from a re-analysis of the deposited data

How the results depend on the processing

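The number of the 39 genes called was 13 with library size as the only scaling, 12 without the filter on low counts and 12 with the replicate block for KO against wild type (6 as reported), and 10 under each of the same alternatives for KO against regenerating (5 as reported), where DESeq2 gave 9, offsets for genomic span 3 and a fit of only the 2 groups 13. For E12 against E11 (4 as reported) RLE scaling gave 2, DESeq2 9, the replicate block 0 and a fit of only the 2 groups 0; for E16 against E14 (14 as reported) a fit of only the 2 groups gave 23. With 1 library left out the counts ran from 2 to 12 for KO against wild type, 0 to 11 for KO against regenerating, 0 to 5 for E12 against E11, 2 to 11 for E14 against E12, 15 to 25 for E16 against E11 and 6 to 20 for E16 against E14, and stayed at 0 for regenerating against wild type. A group left with 1 library was assumed to vary like the others. For KO against wild type the log2 fold change of Psmb8 turned to -0.49 with library size alone, to -0.53 with span offsets and ran from -0.72 to 1.41 with a library left out. Span offsets turned Isg15 to -0.0084 and Psme1 to -0.0462. Irf7 turned to 0.20 with the replicate block and ran from -0.84 to 0.20 with a library left out. For regenerating against wild type, Irf9 turned to -0.0095 with RLE, -0.14 with library size alone, -0.0096 with DESeq2, -0.0509 with span offsets and -0.0148 with only the 2 groups. With a library left out Irf9 ran from -0.40 to 0.32, Bst2 from -0.0356 to 0.61, Irf1 from -0.0541 to 0.55, Psmb8 from -0.96 to 1.14 and Stat2 from -0.0781 to 0.85. For E16 against E11, Irf9 turned to 0.046 with RLE and 0.0459 with DESeq2, and ran from -0.29 to 0.25 with a library left out. The cause of these changes was not tested. Same-numbered libraries had deviations correlated at 0.01 to 0.107 in the colon and -0.029 to 0.042 in the hindgut. The labels do not say whether same-numbered libraries shared a batch or day. With 2 or 3 libraries per group these correlations cannot settle it. Beyond the counts given above, the block changed none by more than 1.5 times. In the day 8 cells a mitochondrial limit of 10% moved the summed level to 1723 CPM, and the highest summed level of a cluster of at least 50 cells was 2091 CPM with a minimum of 3000 UMIs and 3915 CPM at a clustering resolution of 1.0. Groups of 2 or 3 libraries, low counts at E11 and small clusters limit precision.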
